A study of Mus musculus with 2 samples.

Results

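Adipogenic regulators and lipid genes were examined in tdTomato+ cells of the mouse femoral metaphysis, by cell class, in a vehicle and a teriparatide library. The list holds 10 genes out of the 27998 in the feature table: the transcription factors Pparg, Cebpa, Cebpb and Cebpd, the adipokine gene Adipoq, the receptor gene Lepr, and the lipid-handling genes Lpl, Apoe, Fabp4 and Plin2. They were matched by symbol, and 9 of the 10 had a row. Cebpd was not analysed here. The genes were selected on their UMI counts by class and library in an earlier look at these data, so the levels and ratios below describe them and carry no test.

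All mice carried Gli1-CreERT2 and the Ai9 tdTomato reporter on a mixed background, so that cells with Gli1 expression at the time of tamoxifen, and their descendants, were labelled. Mice at 1 month of age received tamoxifen on 3 days and then injections on 3 days, either of vehicle or of teriparatide (an N-terminal fragment of parathyroid hormone) at 400 ng per g body weight. The tdTomato+ cells negative for CD31, CD45 and Ter119 were sorted from the digested metaphysis. Each group comprised 5 mice, of which 3 were male and 2 female, and gave 1 10x Genomics library, in which a unique molecular identifier (UMI) marks each captured mRNA molecule. The 5 mice were taken as pooled in their library, called the control (vehicle) and the treated (teriparatide) library. There were no replicates, so all intervals given are 95% intervals for counting error only and cannot cover the spread between mice.

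The vehicle library held 1286 barcodes with 10567335 UMIs and the teriparatide library 2142 barcodes with 26270041 UMIs. They shared 2 barcodes. After filters on gene number and mitochondrial UMIs, 549 vehicle and 1217 teriparatide cells were kept, with a median of 10875 and 14556 UMIs. Cells were placed in classes by panels of marker genes that held none of the 10 genes. The class like marrow adipogenic lineage progenitors (MALP-like: Cxcl12, Vcam1, Pdgfrb, Kitl, Esm1 and Gas6) had 178 vehicle and 101 teriparatide cells. The pre-osteoblast-like (preOB-like) class had 15 and 21 cells, the osteoblast-like (OB-like) class 134 and 154, and the class like chondrocyte-like osteoprogenitors (COP-like) 65 and 256. Despite the sort, 21 and 135 cells were monocyte and macrophage-like, 26 and 228 neutrophil-like and 40 and 160 erythroid-like. No class could be given to 58 vehicle (10.6%) and 122 teriparatide cells (10.0%). The cells of male and female mice were told apart by Y-linked genes and Xist. Cells with neither or both had no call, among them 34 control and 18 treated MALP-like cells. Such cells are in no value for male or female cells. Of the MALP-like cells, 69 control cells were male and 75 female, against 76 and 7 of the treated cells, so in values over all cells the treatment and the makeup by sex cannot be told apart.

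In adipogenesis, C/EBP proteins are known to act with Pparg, the nuclear receptor at the head of the fat-cell programme, Cebpb early and Cebpa later. Their targets include genes for lipid uptake and storage and for adipokines. In bone marrow, stromal cells that express the leptin receptor, adiponectin and Cxcl12 carry much of this programme without storing visible fat, and they give rise to marrow adipocytes.

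Promoter sequence was available for 7 of the genes, with 12 start sites (RefSeq, GRCm38.p6). The 250 bases before each start were searched on both strands for the C/EBP-type motif TTGCNNAA, for CCAAT, and for TGACGNNA, which is like the cAMP response element. The C/EBP-type motif was present before 1 of the 12 starts (8.33%, against 9.56% of the 32851 promoters in the table). CCAAT stood before 5 starts (41.7% against 33.8%) and TGACGNNA before 1 (8.33% against 5.66%). The windows of 3 genes are printed 5′ to 3′, all on the + strand, since Pparg alone held the C/EBP-type motif, Cebpb alone TGACGNNA, and Adipoq the most matches to CCAAT (3). Capitals mark the matches to these motifs, which did not overlap. They show where the letters occur and are not evidence of binding.
Pparg, the most downstream of 3 starts, chr6:115421816-115422065: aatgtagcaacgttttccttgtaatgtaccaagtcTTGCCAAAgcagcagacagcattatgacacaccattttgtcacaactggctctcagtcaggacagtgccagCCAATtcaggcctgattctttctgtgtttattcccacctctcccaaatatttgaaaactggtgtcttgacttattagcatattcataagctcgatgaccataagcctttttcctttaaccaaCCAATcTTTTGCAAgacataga
Adipoq, chr16:23146286-23146535: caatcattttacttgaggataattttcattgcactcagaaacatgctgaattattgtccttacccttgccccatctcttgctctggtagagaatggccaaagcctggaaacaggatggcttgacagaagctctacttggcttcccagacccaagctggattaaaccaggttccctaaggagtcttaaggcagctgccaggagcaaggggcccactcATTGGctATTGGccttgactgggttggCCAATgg
Cebpb, chr2:167688665-167688914: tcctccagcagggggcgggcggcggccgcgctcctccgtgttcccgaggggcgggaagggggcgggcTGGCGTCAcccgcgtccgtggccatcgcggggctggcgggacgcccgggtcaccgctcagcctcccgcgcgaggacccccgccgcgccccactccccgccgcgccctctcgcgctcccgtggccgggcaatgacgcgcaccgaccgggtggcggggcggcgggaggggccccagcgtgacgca

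In the vehicle library the MALP-like cells were the main site of most of these transcripts among mesenchymal cells. A level is the number of UMIs of a gene for every 1000000 UMIs (CPM), taken over the summed cells of a class. In the vehicle library all 9 genes were highest in the MALP-like cells among the 4 mesenchymal classes, and 7 of 9 were highest there among all 7 classes. The exceptions were Cebpb and Plin2, which were higher in myeloid cells. Among mesenchymal cells Plin2 led by little, with 73.3 CPM in MALP-like and 60.8 CPM (12 UMIs) in preOB-like cells. Fabp4 was among the 7 through 1 vehicle cell. Without that cell it had 19.6 CPM in MALP-like cells, against 38.4 CPM (6 UMIs) in monocyte and macrophage-like cells. In the teriparatide library Cebpb was not highest in MALP-like among mesenchymal cells. It had 207 CPM there, against 214 in OB-like, 286 in preOB-like and 305 CPM in COP-like cells. The counts of 9 and 7 genes were not set against all genes, and the genes were selected on their counts by class. The panels did not use these genes, but the study named its MALP cluster in part by Lepr and Adipoq.

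**Figure D1:**
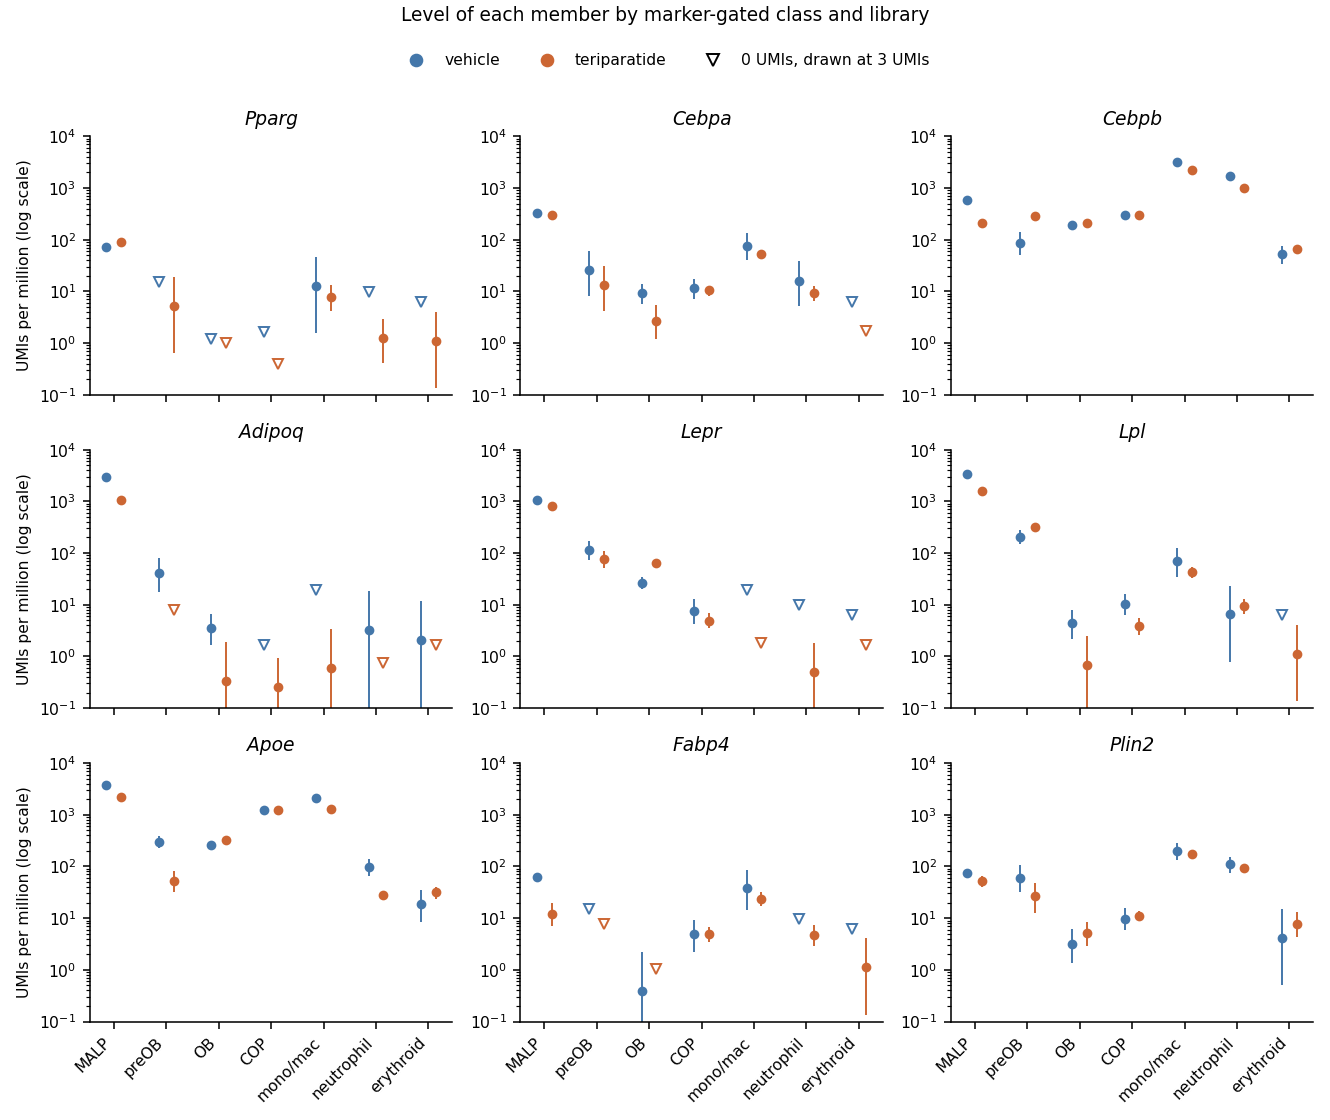
Level of each of the 9 genes (UMIs per 1000000, log scale) by class in the vehicle (blue) and teriparatide (orange) libraries, with exact Poisson 95% intervals. Open triangles mark classes with 0 UMIs, drawn at the level of 3 UMIs. Pparg and Adipoq stand far higher in MALP-like than in OB-like and COP-like cells, whereas Cebpb and Apoe are spread over several classes.

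Pparg (ENSMUSG00000000440, positions 115360951-115490399 of chromosome 6, GRCm38) was found mainly in the MALP-like cells. Control cells held 142 UMIs, or 71.3 CPM (60.1 to 84.1), and treated cells 120 UMIs, or 91.6 CPM (76.0 to 110). No UMI of it was found in the 288 OB-like or the 321 COP-like cells of both libraries. The floor of 3 counts in the teriparatide library was 1.02 CPM for the OB-like and 0.390 CPM for the COP-like cells. Monocyte and macrophage-like cells had 2 and 13 UMIs (12.8 and 7.79 CPM). The intervals of the MALP-like cells overlapped between the libraries, and the log2 ratio of teriparatide to vehicle was 0.36 (-0.0012 to 0.72). Pparg was thus not lower in the treated library, in contrast to most of the other genes.

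Cebpa (ENSMUSG00000034957, positions 35119293-35121928 of chromosome 7), the C/EBP factor of terminal fat-cell differentiation and of myeloid cells, followed the same order. Control MALP-like cells had 325 CPM (300.4 to 351) and treated ones 295 CPM (266 to 326). The log2 ratio was -0.14 (-0.33 to 0.04), and 79.8% and 83.2% of the cells held a UMI. Monocyte and macrophage-like cells came next with 76.8 (39.7 to 134) and 52.1 CPM. The COP-like cells had 11.5 and 10.4 CPM and the OB-like cells 9.11 and 2.71 CPM. Neither library gave a UMI in the erythroid-like cells.

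Cebpb (ENSMUSG00000056501, positions 167688915-167690418 of chromosome 2), an early adipogenic factor that is also induced in inflammation and stress, was detected in all 7 classes. Monocyte and macrophage-like cells of the control and treated libraries had 3174 CPM (2901 to 3466) and 2238 CPM (2167 to 2311). Neutrophil-like cells had 1679 and 982 CPM. Control MALP-like cells stood at 592 CPM (558 to 626), against 207 CPM (183 to 233) after treatment. These intervals were well apart, with a log2 ratio of -1.52 (-1.71 to -1.32). In OB-like cells the ratio was 0.14 (-0.04 to 0.31) and in COP-like cells 0.05 (-0.08 to 0.19). In the few preOB-like cells the direction was opposite, with 17 control UMIs (86.1 CPM) and 109 treated UMIs (286 CPM). Erythroid-like cells, which give a view of background, held a UMI in 20.0% and 22.5% of cells at a median of 10507 and 10449 UMIs. The MALP-like cells did so in 80.3% and 75.2% at 11063 and 13313 UMIs. In erythroid-like cells the 8 markers of their own panel took 517620 and 530748 CPM. The depth left there for other genes was thus lower, and these shares are not matched in depth.

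A list of 14 immediate-early and stress genes was lower in sum in the treated MALP-like cells, as Cebpb was. It was chosen after the values were seen, so its counts only describe it. Its summed level was 7588 CPM in control and 4188 CPM in treated cells, and 9 of the 14 were at least 1.5-fold lower and 0 that much higher, where 9.86% and 7.92% of all genes with at least 50 UMIs in these cells were. Fos had 1530 and 741 CPM and Hspa1a 719.8 and 238 CPM. Socs3, with 371 and 360.5 CPM, Nfkbia, with 175 and 166 CPM, and Ier3, with 116.5 and 96.2 CPM, had ratios whose intervals included 0. In male cells alone the sum was 6786 and 4367 CPM, and 8 of the 14 were that much lower. The share of all genes that were was not taken in male cells. The log2 ratios there were 0.36 for Socs3, 0.30 for Ier3, 0.15 for Nfkbia and 0.02 for Egr1. The median mitochondrial share was 2.40% in control and 3.17% in treated MALP-like cells. The part of such genes in the Cebpb difference was not tested.

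Adipoq (ENSMUSG00000022878, positions 23146536-23158028 of chromosome 16), which encodes adiponectin, was the most class-restricted of the abundant genes. Control MALP-like cells held 5901 UMIs, or 2964 CPM (2889 to 3040). Treated ones held 1388 UMIs, or 1060 CPM (1005 to 1117), which gave a log2 ratio of -1.48 (-1.57 to -1.40). Outside them, the vehicle preOB-like cells had 8 UMIs, all in 1 cell, and no other of the 7 classes exceeded 3.57 CPM in either library. The median MALP-like cell had 26.2 UMIs per 10000 (quartiles 13.8 and 41.6) without treatment and 5.06 (0.709 and 17.5) with it. The upper quartile of treated cells was therefore below the median of control cells. The median and both quartiles lay lower, and the share of cells without a UMI was larger.

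Lepr (ENSMUSG00000057722, positions 101717404-101815352 of chromosome 4), the leptin receptor and the classical marker of these stromal cells, differed less. Control MALP-like cells had 1048 CPM (1004 to 1094) and treated ones 798 CPM (750.4 to 848), with a log2 ratio of -0.39 (-0.50 to -0.29). The medians per cell were 8.53 and 6.98 UMIs per 10000. In male cells the levels were 819 and 755 CPM and the ratio was -0.12 (-0.26 to 0.03). Lepr and Adipoq thus differed in how far apart the libraries were. Lepr was higher in treated OB-like cells, at 63.1 CPM (54.3 to 72.8) against 26.5 CPM (20.6 to 33.7). That ratio of 1.25 was 1.41 in male cells and -0.76 in female cells, where only 4 UMIs came from 9 treated cells.

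Lpl (ENSMUSG00000015568, positions 68880491-68907448 of chromosome 8), the lipase that frees fatty acids from circulating triglyceride, was measured in control MALP-like cells at 3344 CPM (3264 to 3425) and in treated ones at 1591 CPM (1524 to 1661). The log2 ratio was -1.07 (-1.14 to -1.0), and the median per cell was 30.2 in control and 11.4 in treated cells, in UMIs per 10000. Cells without Lpl were few, since 96.1% and 94.1% held a UMI. The preOB-like cells were next among mesenchymal cells, with 208 CPM (149 to 282) for control and 323 CPM (268 to 385) for treated, and 1 cell held 41.5% of the control and another 30.1% of the treated UMIs there. The OB-like and COP-like cells had at most 10.4 CPM.

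Apoe (ENSMUSG00000002985, positions 19696109-19699188 of chromosome 7), a lipoprotein component secreted by macrophages as well as stromal cells, reached 3774 CPM (3689 to 3860) in control MALP-like cells and 2170 CPM (2091 to 2252) in treated ones. The log2 ratio was -0.80 (-0.86 to -0.74), and every one of the 101 treated cells held a UMI. In the COP-like class it was 1209 CPM (1160 to 1261) for control and 1225 CPM (1200 to 1250) for treated cells, with a ratio of 0.02 (-0.05 to 0.09), so the intervals overlapped. The median COP-like cell held only 0.431 and 0.826 UMIs per 10000, against upper quartiles of 20.8 and 15.5. A subset of COP-like cells thus carried most of it. Male COP-like cells had 1423 CPM in the control and 1398 CPM in the treated library. Female ones had 167 and 37.5 CPM, from 42 and 32 UMIs in 9 and 25 cells, a log2 ratio of -2.15. The part of sex in the COP-like level was not tested. In monocyte and macrophage-like cells 2150 and 1270 CPM were measured, but 47.6% of the vehicle UMIs came from 1 cell.

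Fabp4 (ENSMUSG00000062515, positions 10204088-10208576 of chromosome 3), the fatty acid binding protein of mature adipocytes, macrophages and capillary endothelium, was rare. Control MALP-like cells held 122 UMIs (61.3 CPM, 50.9 to 73.2) in 13 cells, and treated ones 16 UMIs (12.2 CPM, 6.98 to 19.8) in 5 cells. A single vehicle cell of 2881 UMIs held 83 of the 122, or 68.0%. The same cell had 101 UMIs of Cfd and 86 of Car3, genes abundant in mature fat. It had 41 of Adipoq, 68 of Apoe, 2 of Plin1 and 1 each of Pparg and Lipe. No UMI of Lepr, Plin2 or Cidec was found in it, and what the cell is was not tested. It held 101 of the 102 UMIs of Cfd in all vehicle MALP-like cells. The log2 ratio of Fabp4 was -2.33 (-3.18 to -1.57) with this cell and -0.68 (-1.62 to 0.19) without it, from 39 and 16 UMIs. Without the richest cell of each library it was -1.86, from 39 and 7 UMIs. The size of the Fabp4 difference thus changed with single cells, and without the vehicle cell its interval included 0. Monocyte and macrophage-like cells held 6 control and 40 treated UMIs of Fabp4 (38.4 and 24.0 CPM).

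Plin2 (ENSMUSG00000028494, positions 86648386-86670060 of chromosome 4), a lipid droplet coat protein found in most cells, was at 73.3 CPM (61.9 to 86.2) in control and 51.2 CPM (39.6 to 65.0) in treated MALP-like cells. Its log2 ratio was -0.52 (-0.96 to -0.09). Monocyte and macrophage-like cells had more, 198 CPM (135 to 282) without and 174 CPM (155 to 196) with treatment. Neutrophil-like cells had 110 CPM (76.3 to 154) and 91.3 CPM. The intervals of the vehicle neutrophil-like cells overlapped with those of both neighbours in this order. The mature adipocyte markers Cidec and Pck1 were at 0 in the MALP-like cells of both libraries, and the whole list of 6 such markers summed to 168 and 15 UMIs. Of the 168, 102 were from Cfd and 57 from Adrb3, and the single cell rich in Fabp4 held 104 of them, so that 64 remained without it.

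Of the 9 genes, 5 (Cebpb, Adipoq, Lpl, Apoe and Fabp4) were at least 1.5-fold lower in the teriparatide than in the vehicle MALP-like cells and 0 were at least 1.5-fold higher. Among the 7426 genes with at least 50 UMIs in these cells, 9.86% were that much lower and 7.92% that much higher. The median log2 ratio was -0.80 over the 9 genes and -0.07 over all tested. Only 44 of the 7426 genes had a lower ratio than Cebpb, 48 a lower one than Adipoq, 139 a lower one than Lpl and 335 a lower one than Apoe. At the other end, 83.2% had a lower ratio than Pparg.

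**Figure D2:**
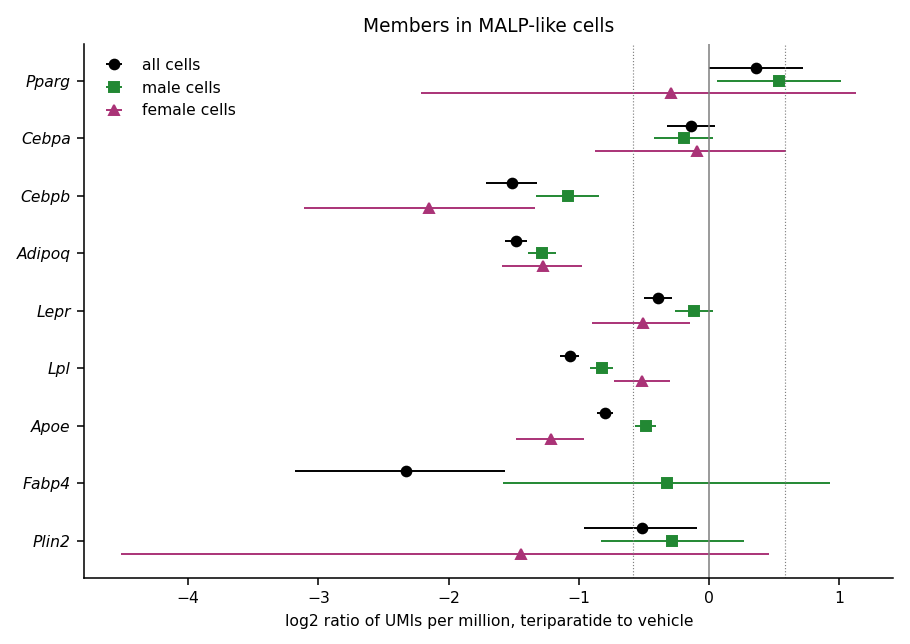
Log2 ratio of UMIs per 1000000, teriparatide to vehicle, in MALP-like cells, for all cells (black), male cells (green) and female cells (purple), with exact conditional 95% intervals. Dotted lines mark 1.5-fold. Cebpb and Adipoq lie below the left dotted line in every group shown, Pparg and Cebpa near 0 in all cells, and the female values rest on 7 treated cells.

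These differences were of another size within cells of the same sex. In the vehicle library alone, female MALP-like cells had more Cebpb than male cells (790 and 444 CPM), more Lepr (1329 and 819 CPM), more Apoe (4402 and 2973 CPM), more Lpl (3947 and 2836 CPM) and more Adipoq (3298 and 2548 CPM). For each of these 5 genes the intervals of the sexes did not overlap. Cebpa was lower in female cells, at 285 CPM (251 to 322) against 354 CPM (316 to 394). In the teriparatide library, with 7 female cells, the log2 ratio of female to male was 0.79 for Lpl and 0.38 for Adipoq. It was 0.30 for Lepr, -0.24 for Cebpb and -0.16 for Apoe, with intervals that included 0. Sex and single mice cannot be told apart in these values. Between libraries in male cells alone, the log2 ratios were -1.09 (-1.33 to -0.85) for Cebpb, -1.28 (-1.39 to -1.18) for Adipoq and -0.83 (-0.92 to -0.74) for Lpl. These 3 were still at least 1.5-fold lower, with no share of all genes taken in male cells. In male cells Apoe, at -0.49 (-0.57 to -0.41), was lower by less, and Fabp4 had 13 and 12 UMIs. In female cells, of which 7 were treated, Lpl had a ratio of -0.51 (-0.73 to -0.30), short of 1.5-fold. Apoe had a ratio of -1.22 (-1.48 to -0.96) in them, and Fabp4 had 26 and 0 UMIs. Pparg in male cells had 66.8 and 96.6 CPM and a ratio of 0.53 (0.06 to 1.01), and in female cells, with 65 and 4 UMIs, the ratio was -0.29 (-2.21 to 1.13).

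Adipoq and Cebpb also differed in the share of cells with a UMI when each cell was thinned to 3000 UMIs, which left 162 vehicle and 98 teriparatide MALP-like cells. Adipoq was found in 93.2% (88.2 to 96.6) of control and 58.2% (47.8 to 68.1) of treated cells, against 95.5% and 77.2% before thinning. Cebpb was found in 64.8% (56.9 to 72.1) and 34.7% (25.4 to 44.98). For Lpl the shares were 94.4% and 84.7%, for Lepr 84.0% and 78.6%, for Apoe 96.3% and 94.9%, for Cebpa 87 of 162 and 49 of 98 cells, and for Plin2 19.8% and 11.2%. Pparg was found in 16.7% and 18.4%, close to the level of 1 UMI. In male cells the Adipoq shares were 87.0% (76.7 to 93.9) and 55.3% (43.4 to 66.7). All 4 of Adipoq, Lepr, Lpl and Apoe were present together in 75.9% (68.6 to 82.3) of control and 43.9% (33.9 to 54.3) of treated cells. In male cells these shares were 66.7% (54.3 to 77.6) and 44.7% (33.3 to 56.6), with overlapping intervals.

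**Figure D3:**
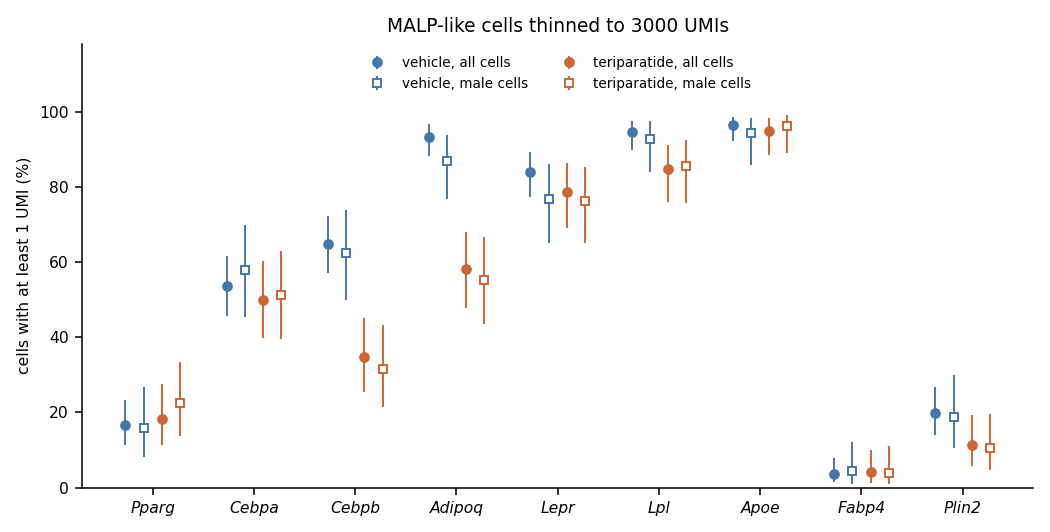
Share of MALP-like cells with at least 1 UMI of each gene after every cell was thinned to 3000 UMIs, for all cells (filled circles) and male cells (open squares) of each library, with exact binomial 95% intervals. Adipoq and Cebpb separate the libraries, while Lepr, Apoe, Cebpa and Pparg overlap.

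**Figure D4:**
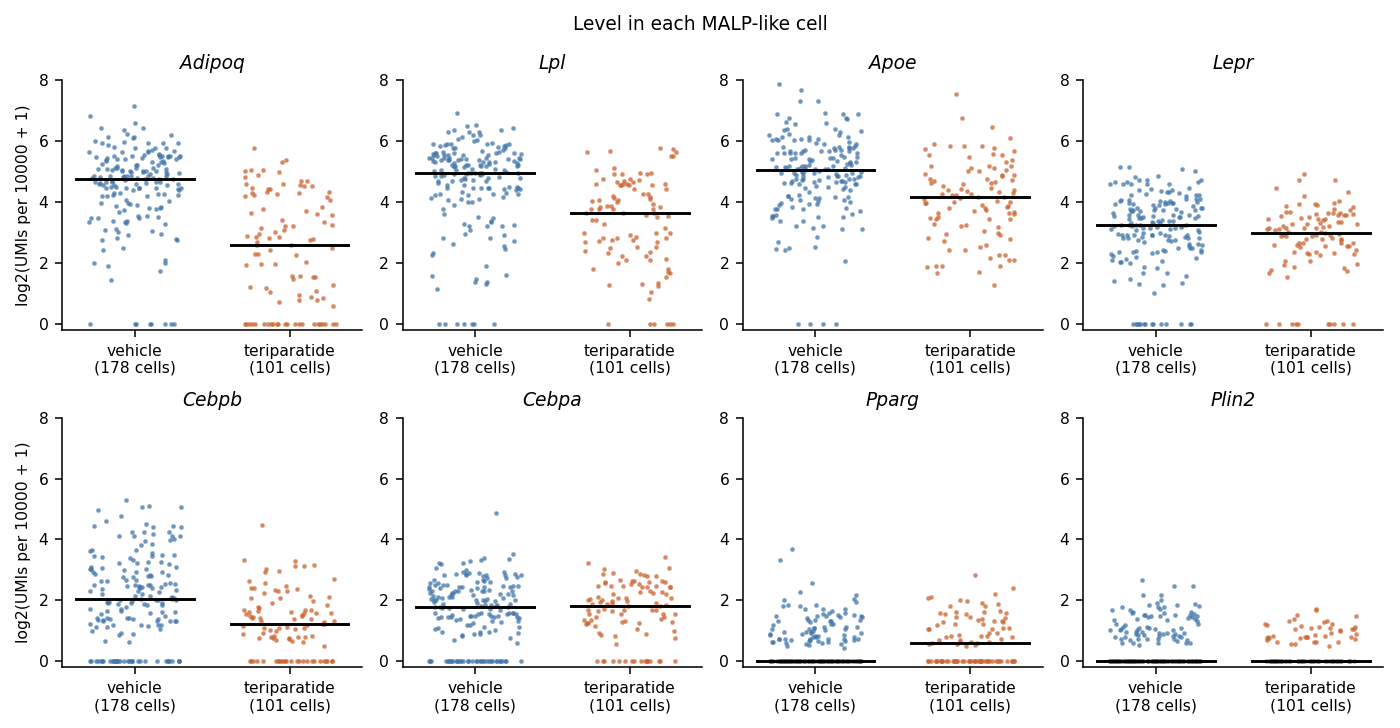
Level of 8 genes in each MALP-like cell, as log2 of UMIs per 10000 plus 1, with the median as a line. In treated cells Adipoq spreads from none detected to the level of control cells, whereas the medians of Lepr and of Cebpa lie close together in both libraries.

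Lepr, Lpl and Apoe were each found in most of the thinned treated cells without Adipoq, but the other genes were not. Cells without it after thinning were 11 of the control (6.79%) and 41 of the treated cells (41.8%). Before thinning these cells held 254 CPM of Adipoq in the control and 110 CPM in the treated library. They were thus low in Adipoq and not all empty of it. In the treated library Lepr was found in 68.3% of the cells without and 86.0% of those with Adipoq, Lpl in 73.2% and 93.0%, and Apoe in 92.7% and 96.5%. Cebpa was found in 34.1% and 61.4%, Pparg in 9.76% and 24.6%, and Plin2 in 4.88% and 15.8%. The Lepr level before thinning went the other way, with 848 CPM in treated cells without and 772 CPM in those with Adipoq, whereas in the vehicle library it was 860 and 1071 CPM. Lpl was lower in them than in the others (977 and 1971 CPM), as were Apoe (1336 and 2667 CPM), Cebpa (231 and 335 CPM) and Pparg (63.3 and 108 CPM). Cebpb had 200.2 CPM in the treated cells without Adipoq and 211 CPM in those with it, and a UMI of it was found in 24.4% and 42.1% of them after thinning. In the vehicle library its levels were 232 and 623 CPM. The MALP panel itself was lower in the treated cells without Adipoq, at 23547 CPM against 31963 CPM, and the osteoblast panel was higher in them, at 3277 CPM against 1252 CPM. In the 11 vehicle cells without Adipoq the osteoblast panel was at 1846 CPM, against 2133 CPM in those with it. The part of osteoblast markers in these values was not tested.

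Markers of mural cells went the opposite way to Adipoq. The panel of 4 mural genes (Acta2, Myh11, Rgs5 and Tagln) summed to 309 CPM in control and 843 CPM in treated MALP-like cells, with none of the 4 at 0. Rgs5 carried most of that difference, with 69.3 and 490 CPM, while Tagln had 172 and 276 CPM and Acta2 66.3 and 70.3 CPM. In the treated cells the panel reached 1884 CPM without and 220 CPM with Adipoq, and in the vehicle cells 1749 and 203 CPM. At least 5 UMIs of the panel were held by 19 of 178 control cells (10.7%) and 26 of 101 treated cells (25.7%). With those cells left out, a choice made after the data were seen, Adipoq had 3167 and 1281 CPM, a log2 ratio of -1.31. The share with Adipoq in thinned cells was then 95.8% of 144 and 63.9% of 72 cells. Of the other panels in MALP-like cells, the 8 neutrophil markers summed to 81.9 CPM in control and 245 CPM in treated cells, the 8 erythroid markers to 159 and 267 CPM, and the 5 COP markers to 27.6 and 107 CPM. General hematopoietic markers summed to 35.2 and 55.0 CPM, monocyte and macrophage markers to 26.1 and 12.2 CPM, and endothelial markers to 14.1 and 8.40 CPM. Their part in the results was not tested.

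The MALP-like cells of each library were split at the median of their panel score, and 7 of the 9 genes differed in the same direction in the cells with the higher and with the lower score. Adipoq had 3437 and 1469 CPM in the upper part and 2351 and 533 CPM in the lower part, control before treated. Lpl had 4127 and 2121 CPM above and 2329 and 909 CPM below. Cebpb had 590 and 183 CPM above and 594 and 238 CPM below. The exceptions were Cebpa, with 320.3 and 340.4 CPM above and 331 and 236 CPM below, and Fabp4, with 11.6 and 14.9 CPM above and 126 and 8.74 CPM below. The lower control part includes the single cell with 83 UMIs of Fabp4. The count of 7 was not set against all genes. Adipoq and Lpl thus followed the panel score within each library, and Cebpb did not.

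In the other classes no common shift was seen. Of the 3 genes with at least 50 UMIs in OB-like cells, 1 (Lepr) was at least 1.5-fold higher and 0 were lower, where 6.63% and 12.2% of 6949 genes were. Of 5 in COP-like cells, 1 (Lepr, with 14 and 38 UMIs) was lower, where 16.8% of 9127 genes were, and 0 were higher, where 8.02% were. That ratio of -0.63 was 0.0066 without the richest cell of each library, 0.63 in thinned cells and 1.82 in female cells. Of 5 in monocyte and macrophage-like cells, 2 (Lpl and Apoe) were lower, where 15.1% of 4515 genes were, and 0 were higher, where 16.9% were. The Lpl ratio there, -0.73 from 11 and 71 UMIs, was 0.44 with classes from clusters and 0.75 in thinned cells. The Apoe ratio, -0.76, was -0.13 without the richest cell of each library and 4.22 in male cells, where control cells held 2 UMIs. In female cells the Apoe ratio was -4.44, from 213 and 32 UMIs. Of 4 in preOB-like cells, Cebpb and Lpl were higher and Lepr and Apoe lower, where 8.92% and 21.9% of 1660 genes were. This class had only 15 and 21 cells, and a second marker panel scored over 0.5 in 5 and 12 of them. The Lpl ratio in it, 0.64, was -0.036 with a stricter gate and -0.84 in male cells. Apoe had 59 control and 20 treated UMIs, of which 40.7% of the former came from 1 cell, and its ratio of -2.51 was 0.69 in male cells, from 1 and 11 UMIs. The Lepr ratio of -0.61 had an interval that included 0 (-1.45 to 0.24).

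A wider set of 93 adipogenic and lipid genes in 6 lists was measured in the MALP-like cells. Of these, 58 had at least 50 UMIs, and 8 were at least 1.5-fold lower, 11 higher and 39 neither, where 9.86% of all genes tested were lower and 7.92% higher. Their median log2 ratio was 0.06, against -0.07 over all genes tested. Of 22 transcription factors 2 were lower and 4 higher, and of 11 adipokine and receptor genes 2 were lower and 2 higher. Of 8 genes of lipid uptake and binding 4 were lower and 1 higher. Of 4 lipolysis genes and of 7 genes of apolipoproteins and cholesterol efflux, 0 were lower and 2 of each were higher. All 6 droplet and triglyceride genes were within 1.5-fold. The lower level of Adipoq, Lpl and Apoe was therefore not shared by most of the wider set.

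Among the members of those lists that differed by at least 2-fold, Fabp5, a relative of Fabp4, stood at 14.1 CPM (9.35 to 20.3) without and 45.1 CPM (34.3 to 58.1) with treatment, with a log2 ratio of 1.68 (1.01 to 2.38). The cholesterol transporters Abca1 (1.19, 0.63 to 1.76) and Npc1 (1.03, 0.42 to 1.65) were also higher. Acsl3, which activates long-chain fatty acids, was lower, at -1.09 (-2.11 to -0.16) from 42 and 13 UMIs. Within male cells the ratios were 1.10 for Fabp5, 1.19 for Abca1, 1.11 for Npc1 and -1.50 for Acsl3. Within female cells they were 0.85 for Abca1, 1.23 for Npc1 and -0.27 for Acsl3, from 25, 20 and 17 UMIs. Fabp5 had only 4 UMIs in female cells. Cfd had 102 and 0 UMIs, at least 22.4-fold lower against a floor of 3 counts, but 1 vehicle UMI remained without the cell described above.

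The genes most like each of the 9 in their pattern were sought by Pearson's correlation of log2(CPM + 1) over the 14 sums of 7 classes and both libraries, among 12084 genes. These points share libraries, so the values are descriptions. Lepr was followed most closely by Ltbp1, Mme and Rbms3 (0.99 each). Pparg was closest to Serpina3g (0.97), Vcam1 (0.94) and Cfb (0.93), Adipoq to Marc1 (0.96), Tmem178 (0.96) and Adamtsl3 (0.95), and Lpl to Rftn1, Tmem86a and Tmod3 (0.93 each). Cebpb was closest to Cbl (0.97), Ero1lb (0.95) and Rassf3 (0.95), and Cebpa to H2-T22, Rbpj (0.95 each) and Kmt2e (0.94). Apoe was closest to Rassf1 (0.93), Pim3 (0.92) and Emc7 (0.91), Fabp4 to Grk5 (0.93), Icam1 and AW112010 (0.92 each), and Plin2 to Lcp2 (0.97), Smim24 (0.96) and Pycard (0.95).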

How the data were processed

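The deposited values were raw UMI counts per gene and cell barcode, made by the authors from 10x 3′ v2 libraries by alignment to mm10. The submitters' processing notes name Cell Ranger 2.1.0. The header of the deposited count files names another version, which does not alter their unit. Cells were kept with 200 to 6000 genes and at most 10% mitochondrial UMIs, limits given in the study's methods. Those limits removed many barcodes, since the mitochondrial limit alone was exceeded by 55.8% of vehicle and 40.2% of teriparatide barcodes. For each of 11 marker panels, the log counts per 10000 of its genes were scaled to their 95th percentile, averaged, and divided by the panel's 99th percentile. A cell joined the panel with the highest score when at least 3 markers were detected, the score was at least 0.3 and it led the next by at least 0.1. No doublet caller was run, and a second panel scored over 0.5 in 1 vehicle and 3 teriparatide MALP-like cells. It did so in 5 of 15 vehicle and 12 of 21 teriparatide preOB-like cells. For hypertrophic chondrocyte-like cells the counts were 3 of 3 and 14 of 20. The panels and the genes and lists described were chosen with earlier results of these data known. All 10 members are named, genes of the further lists if they had at least 50 UMIs and differed by at least 2-fold in MALP-like cells (up to 4 per list), and for likeness the 3 most correlated genes. Gpat3 was found by its identifier under the symbol Agpat9.

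CPM came with exact Poisson intervals, shares with exact Clopper-Pearson intervals and ratios with exact conditional binomial intervals (SciPy 1.17.1). A count of 0 was given a floor of 3 counts. UMIs remove amplification copies, but intervals and floors cover counting error only. Ratio code was tested on simulated counts. With 1 library per condition no p-value could be computed. Alternatives were a stricter and a looser gate, clusters from Seurat 5.3.0, a mitochondrial limit of 20%, thinned cells, another scale, equal weight for cells, male or female cells alone, leaving out the cell with most UMIs, and subtracting the level in erythroid-like cells. Gene positions are those of GENCODE on GRCm38.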

Additional observations from a re-analysis of the deposited data

Results flagged for a closer look

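Apoe in OB-like cells went opposite ways in cells of male and female mice. The log2 ratio of teriparatide to vehicle was 0.37 in male cells (228 and 943 UMIs in 44 and 103 cells) and -4.24 in female cells (378 and 3 UMIs in 66 and 9 cells). In female cells Apoe was also lower in MALP-like (-1.22), preOB-like (-1.97), COP-like (-2.15) and monocyte and macrophage-like cells (-4.44). In the same order the ratios in male cells were -0.49, 0.69, -0.03 and 4.22, several of them from few UMIs. The difference between the sexes was not tested, since each group is 1 library, and the female OB-like value rests on 9 treated cells.

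A signal of Fabp4 lay outside the 7 classes compared. The only mural-like cell of the vehicle library held 125 UMIs of Fabp4 among 15139, more than the 122 of all 178 vehicle MALP-like cells together. It also held 254 UMIs of Rgs5 and 247 of Acta2, 16 of Lpl and none of Adipoq, Pecam1 or Cdh5. The 3 mural-like cells of the teriparatide library held 12 UMIs of Fabp4. It is 1 cell, and what it is was not tested.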

How the results depend on the processing

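Of 297 recomputed ratios, 10 changed sign where the reported value was past 1.5-fold. Of the others, 221 stayed within the counting interval of the reported value and 66 lay outside it. All 10 were outside the MALP-like cells and most rested on few UMIs. Sign changes of ratios reported within 1.5-fold were not counted in the 10. Among these were Pparg in female MALP-like cells (-0.29) and Apoe in OB-like cells, negative under 4 of 11 alternatives. With the stricter gate Lpl in preOB-like cells was -0.036. With classes from clusters Lpl in monocyte and macrophage-like cells was 0.44. In thinned cells that value was 0.75 and Lepr in COP-like cells 0.63. In male cells alone, Lpl in preOB-like cells was -0.84, Apoe there 0.69 and Apoe in monocyte and macrophage-like cells 4.22. In female cells alone Lepr was -0.76 in OB-like and 1.82 in COP-like cells, and without the cell with most UMIs Lepr in COP-like cells was 0.0066. The cause was not tested.

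In male cells alone 3 members, not 5, were at least 1.5-fold lower in MALP-like cells. Under the other alternatives 4 to 6 were lower, and 0 were higher under any. No share of all genes stands beside these counts, since it was taken for the main comparison only. Over all alternatives Adipoq ranged from -1.65 to -1.28, Cebpb from -2.15 to -1.09 and Lpl from -1.19 to -0.51. Fabp4 ranged from -3.79 to -0.32, and it was -0.67 in MALP-like cells of at least 5000 UMIs, a limit chosen after the data were seen. In the vehicle library all 9 genes were highest in MALP-like among mesenchymal cells under every alternative, and 6 or 7 of 9 among all classes. These counts were not set against all genes either. The cluster named MALP-like held 202 cells, 120 vehicle and 82 teriparatide. Of the 279 MALP-like cells of the gate, 200 were in it, and the others were not. No cluster was named preOB-like, so the alternative with clusters gave no preOB-like value. No paired analysis was possible because each condition had 1 library.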

Other observations

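Cells that joined no class also held members. In the vehicle library Adipoq had 56 UMIs in 4 of the 58 such cells (148 CPM) and in the teriparatide library 1 UMI in 122 cells. Apoe had 1278 and 166 CPM in them. Cebpb had 691 and 668 CPM, above the OB-like and COP-like cells of both libraries. Hypertrophic chondrocyte-like cells (3 and 20) held no UMI of Pparg, Cebpa, Lpl or Adipoq. In the teriparatide library they had 50.4 CPM of Plin2 (34.9 to 70.5), against 11.2 CPM (8.93 to 13.8) in the COP-like cells.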
